A study of Homo sapiens with 4 samples.

Results

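The EGR, NR4A and IER genes are immediate early genes, 9 symbols in all, and their levels were compared between ELK3 knockdown and sh control arrays of Hs578T, an established human breast cancer line with mesenchymal features. Every probe set that the PrimeView annotation pairs with exactly 1 of these symbols was taken, which gave 27 of 49293 probe sets for 8 of the 9 genes: EGR1 (6 probe sets), EGR3 (4), NR4A1 (7), NR4A2 (3), NR4A3 (3), IER2 (1), IER3 (1) and IER5 (2). EGR2 is not analysed here. These 8 stand among 18132 genes with a probe set of their own.

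Per the labels, 2 arrays (numbered 1 and 5) came from Hs578T cells transduced with lentivirus carrying an shRNA against ELK3 and kept as stable knockdown cells, and 2 (numbered 1 and 2) from ELK3 sh control cells. Both groups grew in medium with serum and insulin, and no stimulus or time course is named, so the values are levels in growing cultures. The labels do not say whether a number marks a construct, a clone or a culture, nor what the control shRNA targets. Each p-value thus rests on the spread among the arrays alone, the gene's own combined with that of all genes. This spread may be technical. An array reads a culture as a whole: fewer cells making a transcript and less transcript per cell cannot be told apart.

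Immediate early genes are switched on within minutes by growth factors, serum or stress, without new protein synthesis, and their short-lived mRNAs decay quickly. Many carry serum response elements, where serum response factor (SRF) binds a CArG box and a ternary complex factor (ELK1, ELK3 or ELK4) binds an adjacent ETS site and is phosphorylated by ERK. ELK3, also called Net, represses such genes when it is not phosphorylated and can activate them when it is. The EGR genes encode zinc finger factors of GC-rich sites, the NR4A genes orphan nuclear receptors that need no known ligand, and the IER genes regulators that carry neither kind of DNA-binding domain.

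ELK3 itself stood at 8.09 and 7.92 in the knockdown arrays, against 10.05 and 10.07 in the control arrays, on the RMA log2 scale used for all levels here. The arrays of a group correlated at r = 0.996 (knockdown) and 0.998 (control) across probe sets, and arrays of different groups at 0.902 to 0.904. All 10 mesenchymal markers on the list were bright in the control arrays, as fits the labelled line. All 10 were lower in the knockdown arrays, where 21.3% of all genes were lower by the test described below. Their summed signal was 13.74 to 13.84 log2 units in the knockdown arrays, against 16.46 to 16.55 in the control arrays. By the brightest probe set of each gene, the largest falls in log2 level were those of COL1A2 (-8.37), AXL (-7.26), THY1 (-6.95) and COL1A1 (-6.42). With the mean of all probe sets COL1A2 was at -7.54, AXL at -5.16 and COL1A1 at -5.51. COL1A2 averaged 5.30 in knockdown and 13.67 in control, and THY1 averaged 5.01 in knockdown and 11.97 in control. VIM fell less, averaging 13.12 in knockdown and 14.29 in control. Of 8 epithelial markers 3 were higher (KRT19, KRT8 and KRT18) and 0 lower. That is 37.5% past the threshold of that test, where 29.5% of all genes were higher and 50.8% changed either way, so the count alone says little. The list's summed signal was 13.81 to 14.13 log2 units in the knockdown arrays and 11.00 to 11.05 in the control arrays. That sum is carried by the 3 keratins: the other 5 did not pass, with means of 3.76 to 7.84 in knockdown and 3.83 to 7.71 in control. The defining markers EPCAM and CDH1 stayed at the dim end in both groups (means of 3.76 and 4.30 in knockdown, 3.83 and 4.41 in control). These marker shifts separate the same arrays as every result below, and their part in those results was not tested.

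EGR1 and IER3 fell 7.50-fold and 6.63-fold in the knockdown arrays, EGR3, IER2 and NR4A2 fell by less than 2-fold, IER5 rose 3.28-fold, and NR4A1 and NR4A3 did not pass. Each gene was first read by its brightest probe set and tested with limma over all genes at a Benjamini-Hochberg adjusted p under 0.05. By that call 5 of the 8 genes were lower and 1 was higher, where 21.3% of all genes tested were lower, 29.5% were higher and 50.8% changed either way. The median log2 change was -0.60 over the 8 genes and -0.01 over all genes. With 50.8% of genes called, a call alone says little about these 8, and the size of each change is given with it. The groups of arrays did not overlap for 7 of the 8, where 75.3% of all genes did not overlap. By the selection of the series' design text, a fold over 1.5 with an unadjusted p under 0.05, 4 of the 8 were lower and 1 higher (12.6% and 19.1% of all genes, 31.7% either way). Over probe sets, 12 of the 27 were lower and 3 higher, where 22.1% and 27% of all probe sets were, 49.2% either way, and the groups were apart for 23 of the 27 and for 74.5% of all probe sets. At 2 arrays a group an exact permutation of a single gene can give no p under 0.333.

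**Figure D1:**
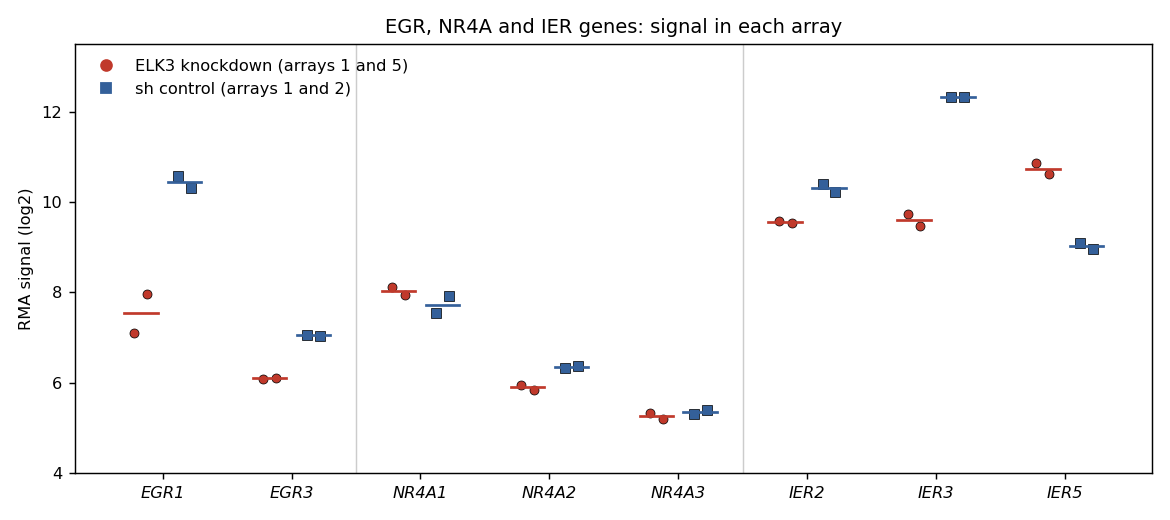
RMA log2 signal (vertical axis) of the 8 genes in each array, read by the brightest probe set of each gene, with knockdown arrays as circles and control arrays as squares and a line at each group's mean. The knockdown points lie below the control points for EGR1, EGR3, NR4A2, IER2 and IER3, above them for NR4A1 and IER5, and overlap them for NR4A3; heights of different genes come from different probes and are not comparable.

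EGR1, the founding member of its family and a classic target of SRF and ternary complex factors, lies at chr5:138465479-138469303 (GRCh38.p14). The stretch of its promoter just before the start site is shown because it holds CArG boxes and an ETS motif, beside those of 3 other members. Whether ELK3 acts on any of these stretches was not tested, and no windows of IER3, NR4A2 and EGR3 were used. Each line runs over the 150 bases before the RefSeq start site of assembly GRCh38.p14, on the plus strand, and capitals mark CArG boxes, the ETS motifs CCGGAA and CAGGAA and the cyclic AMP response core TGACG, each searched on both strands.
EGR1 (chr5:138465329-138465478): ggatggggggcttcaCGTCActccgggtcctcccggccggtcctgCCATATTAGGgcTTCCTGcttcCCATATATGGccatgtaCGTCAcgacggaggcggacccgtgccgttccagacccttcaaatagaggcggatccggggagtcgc
NR4A3 (chr9:99821735-99821884): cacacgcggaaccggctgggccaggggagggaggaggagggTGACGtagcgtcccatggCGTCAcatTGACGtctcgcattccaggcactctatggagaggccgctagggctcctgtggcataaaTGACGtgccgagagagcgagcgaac
IER2 (chr19:13150261-13150410): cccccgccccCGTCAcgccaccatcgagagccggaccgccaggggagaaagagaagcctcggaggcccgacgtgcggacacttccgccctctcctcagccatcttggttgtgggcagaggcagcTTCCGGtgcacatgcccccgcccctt
IER5 (chr1:181088550-181088699): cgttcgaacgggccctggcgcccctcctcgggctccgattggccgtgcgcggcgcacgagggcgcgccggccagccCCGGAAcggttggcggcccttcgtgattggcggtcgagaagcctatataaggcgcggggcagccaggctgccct

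In the EGR1 stretch 2 CArG boxes lie 105 to 96 and 83 to 74 bases before the start, and CAGGAA, read on the minus strand as TTCCTG, lies between them at 93 to 88 bases. A CArG box occurs in 1.29% of the 35116 RefSeq promoter windows of 300 bases (250 before the start and 50 after it), CAGGAA in 28.4%, CCGGAA in 17.2% and TGACG in 24.6%. Of the 6 windows available for 5 measured members (EGR1, NR4A1 with 2, NR4A3, IER2 and IER5), the EGR1 window was the only one with a CArG box. CCGGAA was found once each in IER2, IER5 and 1 NR4A1 window, and CAGGAA once each in EGR1 and that NR4A1 window. TGACG was found at 4 places in NR4A3, 2 in EGR1 and 1 in IER2. The EGR site GCGTGGGCG (0.795% of windows), the NR4A site AAAGGTCA (1.22%) and the full cyclic AMP response element TGACGTCA (1.85%) were found in none of the 6. These are matches of letters in short windows, and binding was not measured.

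EGR1 fell in the knockdown arrays by every probe set. Its brightest probe set read 7.11 and 7.97 in knockdown arrays 1 and 5, against 10.57 and 10.32 in control arrays 1 and 2. The knockdown arrays were both far below the controls but differed from each other more than for nearly all genes. The means were 7.54 ± 0.61 in knockdown and 10.45 ± 0.18 in control (SD, n = 2 each), a 7.50-fold lower level (log2 change -2.91, SE 0.26, 95% interval -3.51 to -2.30, limma adjusted p = 7.08e-05). Only 3.19% of all genes had a larger absolute change.

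The 6 EGR1 probe sets disagreed on how far the gene fell. The log2 change ran from -2.97 to -0.44 with a median of -2.28, and all 6 passed when every probe set of the table was tested. Probe set 11717860_a_at read 6.55 and 7.78 in knockdown, against 10.21 and 10.05 in control, and 11752940_a_at read 6.92 and 7.57 in knockdown, against 9.95 and 9.71 in control. The smallest fall was that of 11751643_x_at, with 6.35 and 6.52 in knockdown and 6.77 and 6.99 in control. The 3 brightest probe sets thus put EGR1 at 6.03-fold to 7.82-fold lower, while the dimmer ones gave 3.93-fold, 2.38-fold and 1.36-fold. With the mean of all its probe sets the log2 change of EGR1 was -2.02.

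The gap between the knockdown arrays was itself large for EGR1. Knockdown array 5 stood 0.86 log2 units above array 1, a gap that 0.463% of genes exceeded, and the 2 other bright probe sets gave 1.22 and 0.65 in the same direction. Left with knockdown array 5 alone the log2 change was -2.48, and with array 1 alone it was -3.34. Among 41 other immediate early genes the median absolute gap between the knockdown arrays was 0.21, against 0.06 between the control arrays. Over all genes these medians were 0.11 between knockdown arrays and 0.08 between control arrays. Array 5 was the higher of the knockdown arrays for 13 of the 41, so the direction of the EGR1 gap was not shared by most of them.

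EGR3, a related zinc finger factor, lies on chromosome 8. Its brightest probe set read 6.09 and 6.10 in the knockdown arrays, against 7.06 and 7.04 in the control arrays. The arrays of each group nearly coincided and the groups were apart. EGR3 was 1.94-fold lower (log2 change -0.96, SE 0.11, 95% interval -1.21 to -0.71, limma adjusted p = 2.23e-04), and 18.7% of genes had a larger absolute change. The other 3 probe sets gave -0.38, -0.37 and -0.21, of which the last did not pass, and the mean of all 4 was -0.48. All 4 probe sets of EGR3 lay under the middle of the array's range, between the 29.3 and 47.2 percentiles of mean signal.

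NR4A1 (Nur77), at chr12:52022832-52059503, gave different answers by different probe sets. The brightest, 11717995_x_at, read 8.11 and 7.95 in knockdown, against 7.54 and 7.92 in control. The groups did not overlap, but only 0.03 log2 units separated the nearest arrays, and the difference between the control arrays exceeded the mean change. The log2 change was 0.30 (SE 0.15, 95% interval -0.05 to 0.65) and did not pass (limma adjusted p = 0.135). Probe set 11717994_a_at, which the annotation also pairs with NR4A1 alone, read 7.82 and 7.35 in knockdown, against 6.30 and 5.98 in control. By it NR4A1 was 2.72-fold higher (log2 change 1.44, 95% interval 1.00 to 1.89, limma adjusted p = 5.22e-04 over all probe sets). The other 5 probe sets of NR4A1 lay between -0.14 and 0.26 and did not pass. NR4A1 passed as higher with the mean of all probe sets (0.35, limma adjusted p = 0.0177) and without probe sets that mark cross-hybridisation (1.44). The latter value is that of 11717994_a_at again, and the mean includes it, so neither is a separate reading. The unmarked probe sets 11749725_a_at (0.22) and 11760979_at (-0.14) did not pass. By the brightest probe set, NR4A1 was at 0.22 without knockdown replicate 1 and at 0.38 without knockdown replicate 5. It was at 0.11 without control replicate 1 and at 0.49 without control replicate 2. With 1 array left in a group, only the size is given.

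NR4A2 (Nurr1), known for its need in dopamine neurons and at chr2:156324437-156332721, fell slightly. It read 5.95 and 5.84 in the knockdown arrays, against 6.33 and 6.37 in the control arrays. The groups were apart by 0.38 log2 units. NR4A2 was 1.37-fold lower (log2 change -0.45, SE 0.11, 95% interval -0.71 to -0.19, limma adjusted p = 0.0113), a size that 38.8% of genes exceeded. NR4A2 did not pass at a limma adjusted p under 0.01, and without control replicate 2 its log2 change was -0.43. The other 2 probe sets gave -0.24 and -0.18 and did not pass.

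NR4A3 (NOR1), at chr9:99821885-99866891, read 5.32 and 5.19 in the knockdown arrays, against 5.31 and 5.39 in the control arrays. The groups overlapped. The log2 change of NR4A3 was -0.09 (SE 0.11, 95% interval -0.34 to 0.16, limma adjusted p = 0.503), and a fall or rise inside that interval could not be resolved with these arrays. The other 2 probe sets gave -0.24 and -0.03. The NR4A3 and NR4A2 probe sets were among the dimmer ones of the array, between the 16.4 and 40.4 percentiles of mean signal, and the deposited table holds no call of signal above background.

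**Figure D2:**
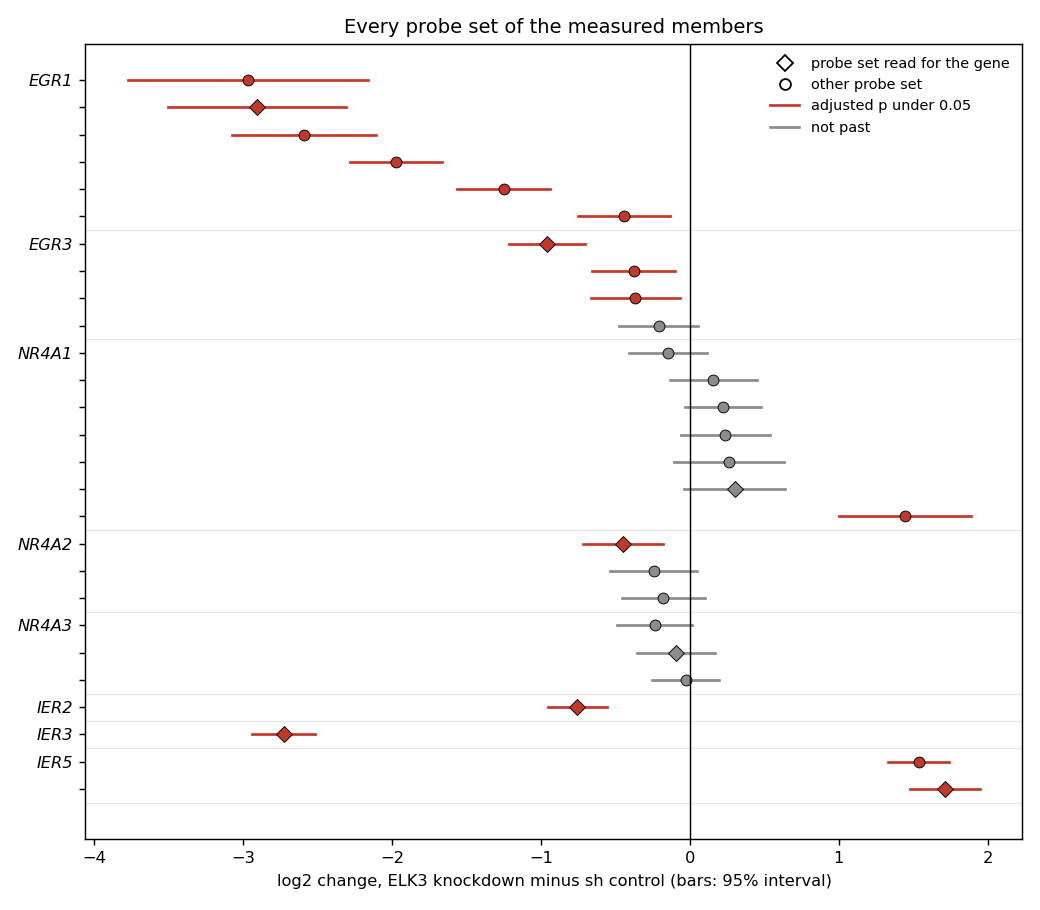
Log2 change (knockdown minus control, horizontal axis) of all 27 probe sets with 95% intervals, grouped by gene and ordered within each gene; diamonds mark the probe set read for the gene, red an adjusted p under 0.05 over all probe sets. The 6 EGR1 probe sets spread from -2.97 to -0.44, 1 of 7 NR4A1 probe sets stands apart at 1.44, and both IER5 probe sets lie above 1.5.

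IER3 (IEX-1), an ERK substrate that affects cell survival and is also induced by NF-kB, lies at chr6:30743199-30744547. It read 9.73 and 9.47 in the knockdown arrays, against 12.33 and 12.33 in the control arrays. The control arrays coincided, and both knockdown arrays were at least 2.60 log2 units below them. IER3 was 6.63-fold lower (log2 change -2.73, SE 0.09, 95% interval -2.94 to -2.52, limma adjusted p = 8.26e-07), and 3.63% of genes had a larger absolute change. IER3 has a single probe set, whose name marks possible cross-hybridisation, so no other reading of it could be made.

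IER2, a nuclear protein induced by serum, lies at chr19:13150411-13154911. Its single probe set, which also marks cross-hybridisation, read 9.57 and 9.53 in the knockdown arrays, against 10.40 and 10.22 in the control arrays. The groups were apart, with the nearest arrays 0.65 log2 units from each other. IER2 was 1.69-fold lower (log2 change -0.76, SE 0.08, 95% interval -0.96 to -0.56, limma adjusted p = 2.40e-04).

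IER5, which brings the phosphatase PP2A to heat shock factor HSF1 and thereby activates it, was the member that rose, and lies at chr1:181088700-181092900. Its brighter probe set read 10.86 and 10.62 in the knockdown arrays, against 9.08 and 8.97 in the control arrays. Both knockdown arrays stood at least 1.53 log2 units above both controls. IER5 was 3.28-fold higher (log2 change 1.71, SE 0.10, 95% interval 1.47 to 1.95, limma adjusted p = 1.00e-05), and its other probe set was 2.90-fold higher. IER5L, its relative, fell to 7.86 in knockdown, against 8.38 in control (log2 change -0.52). A larger absolute change than that of IER5 was measured for 8.36% of genes.

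Partners of the 3 families were counted by the same gene-level test, by which 29.5% of all genes were higher, 21.3% lower and 50.8% past the threshold, with a median log2 change of -0.01. Of 7 EGR partners and relatives, 4 were higher and 0 lower, which is 57.1% past the threshold and near the share of all genes (median 0.51): WT1 (1.81), a zinc finger factor with overlapping DNA sites, the acetyltransferase genes EP300 (1.24) and CREBBP (1.21), and SP1 (0.51). The EGR corepressor genes NAB2 and NAB1 stood at -0.12 and -0.05 and EGR4 at -0.26, and none of these passed. NAB1 depended on its probe set: read without those that mark cross-hybridisation it fell by 0.74 and passed. Of 4 NR4A partners, 50% were past the threshold, again near the share of all genes (median 0.09). RXRA, the retinoid X receptor gene whose product pairs with NR4A1 and NR4A2, rose by 1.09, RXRB by 0.23 and 0 fell. The RXRB call was weak: the mean over its probe sets gave 0.02, which did not pass. RXRB also lost its call without the intensity trend, with quantile normalization and without probe sets that mark cross-hybridisation (0.045). Among 8 IER relatives and partners 4 were higher and 3 lower (87.5% past the threshold, median 0.07), led by the PP2A scaffold gene PPP2R1A (0.63) and by IER3IP1 (-0.62), whose product is named for an interaction with IER3. HSF1 stood at -0.18 and did not pass. Of 10 heat shock genes, 2 were higher and 2 lower, and the 40% past the threshold was under the share of all genes (median -0.08). HSPA1B, an inducible HSP70 gene, rose by 2.43 and HSPB1 by 0.35, while HSPA8 (-0.19) and BAG3 (-0.26) were lower. BAG3 and HSPA8 lost their calls without the intensity trend, and HSPA8 also with the mean over probe sets. HSPA1B shares near-identical sequence with its neighbour gene, so its probes may read both.

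The wider set of other immediate early genes moved mostly down. Of 41 measured, 30 were lower and 4 higher, where 21.3% of all genes were lower and 29.5% higher. That is 82.9% past the threshold against 50.8% of all genes, and the median log2 change was -1.01. The list was chosen with earlier results of these data known. The largest falls were those of PHLDA1 (-5.98), a pleckstrin-like protein gene, FOSL1 (-4.71), an AP-1 subunit gene, DUSP6 (-4.28), the cytosolic ERK phosphatase gene, and MAFF (-3.54), a small MAF factor gene. With the mean of probe sets PHLDA1 was at -5.28, FOSL1 at -3.40 and MAFF at -2.54, and MAFF was at -1.54 by probe sets that do not mark cross-hybridisation. Ordered by change among all 49 genes in the plot of immediate early genes, EGR1 took place 8 and IER3 place 10 from the largest fall. EGR1 took place 12 without knockdown replicate 1 and place 5 without knockdown replicate 5, and IER3 place 10 and place 8. IER5 had the largest of the 5 rises, with an interval that overlaps those of DUSP4 and DUSP1. Its other probe set gave 1.54, against 1.63 for DUSP4. Without knockdown replicate 5 IER5 took the second place among rises. The others that rose were DUSP4, DUSP1, HES1 and ARC, chosen here for their direction after their values were seen. The list mixes genes known from several stimuli, and the test counts members one by one.

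**Figure D3:**
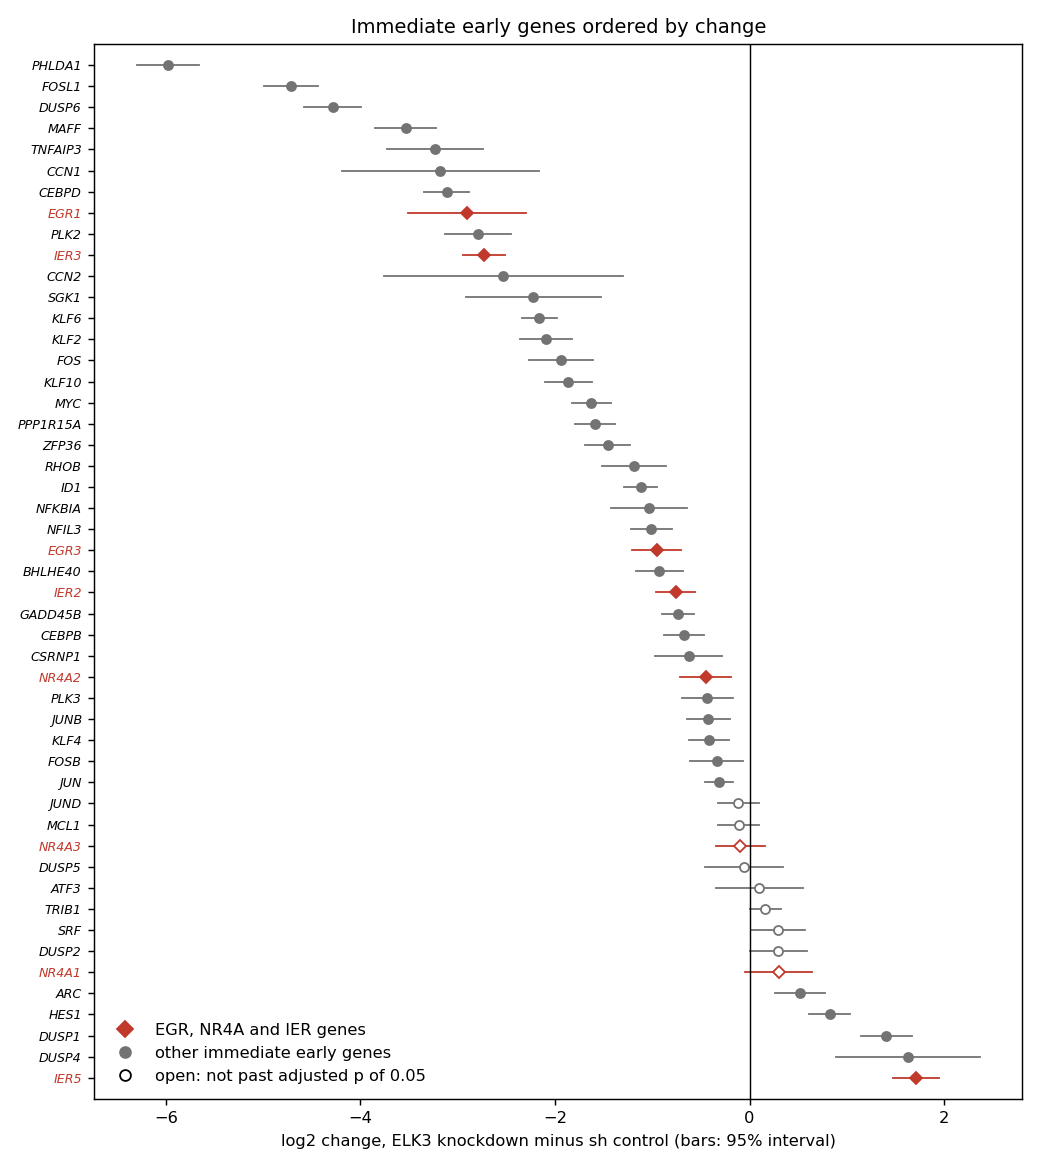
Log2 change (knockdown minus control, horizontal axis, 95% intervals) of the 8 EGR, NR4A and IER genes (red diamonds) and 41 other immediate early genes (grey circles), ordered from the largest fall to the largest rise, with open symbols for genes that did not pass. Below 0 lie 5 filled diamonds, IER5 ends the order at 1.71, and NR4A1 and NR4A3 are open.

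The factors and kinases that feed these genes went both ways, where 29.5% of all genes were higher, 21.3% lower and 50.8% past the threshold. Of 6 ternary complex factors and SRF cofactors, 3 were lower (ELK3, MRTFA and ELK4) and 2 higher (MRTFB and ELK1), and SRF stood at 0.29 without passing (83.3% past the threshold, median -0.13). ELK3 is the target of the shRNA, so its fall belongs to the design and its call is no finding about the list. With each array left out in turn SRF lay between 0.14 and 0.45. ELK4 lost its call with the mean over its probe sets. Without probe sets that mark cross-hybridisation SRF was at -0.068 and MRTFB at -0.10, and neither passed. In the RAS-ERK cascade 6 of 12 genes measured were higher and 3 lower (75% past the threshold, median 0.18). The S6 kinase gene RPS6KA1 (1.74), the ERK1 gene MAPK3 (1.26) and SOS1 (0.77) were higher and RPS6KA2 (-1.42) lower, and by its probe sets free of that mark SOS1 was lower instead, at -0.24. The list of 11 CREB and MEF2 factors holds both factors known to drive NR4A1 and the class II deacetylases that repress through MEF2, and 7 of its genes were higher and 2 lower (81.8% past the threshold, median 0.43). Both that were lower are deacetylase genes, HDAC4 (-1.83) and HDAC7 (-0.25). Another deacetylase gene, HDAC5 (1.65), was higher, as were MEF2C (1.61) and CREM (1.20). By probe sets without that mark HDAC4 changed by -0.086 and lost its call, and averaging all probe sets put HDAC5 at 0.66.

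Genes reported elsewhere as EGR1 targets fell in 7 of 11 and rose in 1, where 21.3% of all genes were lower and 29.5% higher (72.7% past the threshold against 50.8%, median -1.03). The fibronectin gene FN1 (-6.19), the tissue factor gene F3 (-4.67) and the membrane protease gene MMP14 (-4.21) were lower, and the cell cycle inhibitor gene CDKN1A (1.93) was higher. The mean over the MMP14 probe sets gave -3.50. FN1 is also one of the mesenchymal markers that fell as a whole list. Of 8 genes that act on AU-rich mRNAs, to which many immediate early transcripts belong, 4 were higher and 3 lower (87.5% past the threshold, median 0.18). The list mixes opposite functions: ELAVL1, which was higher (0.28), encodes HuR, known for stabilising such mRNAs. ZFP36, ZFP36L1 and CNOT7 fell by 1.46, by 1.67 and by 1.65, and the binding protein gene HNRNPD rose by 0.62. By probe sets that do not mark cross-hybridisation ZFP36L1 changed by -0.33 and lost its call.

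The genes most like a member over the 4 arrays were taken by the Euclidean distance of their centred log2 values. For EGR1 these were VCAN, SHFL and FAM20C, at distances of 0.26, 0.26 and 0.27, and 26 genes lay within 0.5. The log2 change of SHFL was -2.83, and -1.92 with the mean over its probe sets. Without knockdown replicate 1 the change of SHFL was -2.22, and without knockdown replicate 5 it was -3.44. For IER2 they were BLID, MRTFA and CMTR2, with 2592 genes within 0.5. For NR4A1 they were KCND1, NPM3 and LRRN2, with 7736 genes within 0.5. Over 4 arrays the small changes of IER2 and NR4A1 thus had far more close matches than the large fall and unequal knockdown arrays of EGR1.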

How the data were processed

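The deposited table holds log2 signals of 4 one-colour PrimeView arrays. The submitters' processing notes name RMA as what the authors ran, with its version and steps not given in the sources used here. Arrays have no read depth, and their number limits the precision. The platform annotation gave 44988 probe sets 1 symbol, 1832 several and 2473 none here; no gene was named from several. Each of 18132 genes was read by its brightest probe set (mean of the 4 arrays). Knockdown was tested against control in limma 3.58.1 under R 4.3.3 (lmFit, eBayes with intensity trend, group as the only factor, two-sided, Benjamini-Hochberg over all genes, 2 residual and 4.83 prior degrees of freedom), and again over all 49293 probe sets. The fit was also run on simulated noise with 200 changed genes, far fewer than were called here. No conclusion about the calls here is drawn from that run. 

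The 9 members and the lists were chosen with earlier results of these data known. Named beside the members are up to 4 genes of each list by size of change among those past the threshold, NAB1, NAB2, EGR4, ELK3 and SRF, and the 3 genes most like EGR1, NR4A1 and IER2. Outside that rule, and chosen after their values were seen, stand IER5L, VIM, EPCAM, CDH1, HSF1, ELK1, HDAC7, ELAVL1, DUSP4, DUSP1, HES1 and ARC. Also added then were the alternatives for genes that are no members. Promoter windows and gene positions are RefSeq's, assembly GRCh38.p14. Plots used matplotlib 3.10.9 (Python 3.11.15).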

Additional observations from a re-analysis of the deposited data

How the results depend on the processing

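Over 99 values of the 8 genes under 13 settings, 92 kept direction and side of the threshold, 3 lost their call (NR4A2), 4 gained one (NR4A1) and 0 turned. A setting that leaves out 1 array keeps a single array in 1 group. Its calls enter these counts but are not on the scale of the main fit. Settings that alter only the moderation, the genes tested or the threshold leave each log2 change as it was, so no direction could turn there. For IER2 and IER3, with 1 probe set each, the mean of all probe sets could change no direction either. The member genes higher were 2 instead of 1 with the mean of all probe sets and with cross-hybridising probe sets left out (NR4A1 in both), and 1 to 2 with each array left out in turn. The member genes lower were 3 instead of 5 with cross-hybridising probe sets left out, which removes IER2 and IER3. They were also 3 with dim genes left out, which removes EGR3 and NR4A2. Member probe sets lower were 5 instead of 12 with dim ones left out. By the selection of the series' design text (fold over 1.5, unadjusted p under 0.05) 3469 genes were higher and 2284 lower, instead of 5354 and 3865, and NR4A2 was not among them. NR4A2 also missed an adjusted p under 0.01. With cross-hybridising probe sets left out MRTFB was at -0.10, SOS1 at -0.24 and SRF at -0.068. NAB1 lay at 0.073 without knockdown replicate 1 and at -0.18 without knockdown replicate 5. No paired analysis was possible because the groups share only the replicate number 1. Signals near the dim end limit NR4A2, NR4A3 and EGR3.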
